A study of Mus musculus with 52 samples.

Results

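Interferon-stimulated genes are described here by 9 genes, Isg15, Ifit1, Ifit3, Oasl2, Bst2, Usp18, Irf7, Irf9 and Stat2, taken by name from a list of interferon-stimulated genes and interferon signalling factors. All 9 were among the 48526 gene IDs of each processed table. The mice were labelled miR-146a KO, without the microRNA miR-146a, or WT, and poly-A RNA of their brains was sequenced in 52 libraries of 14 groups. At embryonic day 14 (E14) the whole cortex had 5 KO and 4 WT libraries. At postnatal day 30 (P30) the amygdala, frontal cortex and hippocampus had 4 KO and 4 WT libraries each. At postnatal day 60 (P60) there were 4 KO and 3 WT libraries of the amygdala, 4 KO and 3 WT of the frontal cortex, and 2 KO and 3 WT of the hippocampus. The title of the series names the development of the mouse brain as its subject, and its design text gives mice of different mothers as the replicates. The sources used here give neither strain nor sex, nor which cell types lacked the gene, and no group carried a further treatment.

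Type I interferons bind a receptor at the cell surface, and the kinases Jak1 and Tyk2 on its inner side then phosphorylate Stat2. With Irf9, Stat2 is part of the complex ISGF3, which enters the nucleus and binds the interferon-stimulated response element (ISRE) in the promoters of genes such as Isg15 and Ifit1. In the brain, microglia and endothelial cells are among the strong responders, and many of these genes keep a low basal level without infection. miR-146a is a microRNA known for restraining innate immune signalling through the adaptors Traf6 and Irak1.

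The ISRE core was searched as GAAA, any 2 bases and GAAA again, on both strands, in promoters of 300 bases (250 before and 50 after the annotated start; RefSeq, GRCm38.p6). Of the 8 members with a promoter entry, 5 held it (Isg15, Bst2, Stat2, Ifit3 and Ifit1), and 3 did not in this window (Oasl2, Irf7 and Irf9). Of all 32851 promoters, 3.443% held the core, and so did 7 of 23 promoters of other interferon-stimulated genes. The stretches around the matches are shown because they are the element through which the members are known to share control. Capitals mark the matched bases, with overlapping matches merged, and a match on the other strand reads TTTC, any 2 bases and TTTC.
Isg15, chr4:156200860-156200911, minus strand: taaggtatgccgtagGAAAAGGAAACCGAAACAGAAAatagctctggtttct
Bst2, chr8:71537572-71537617, minus strand: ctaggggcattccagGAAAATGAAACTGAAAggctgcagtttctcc
Stat2, chr10:128270261-128270300, plus strand: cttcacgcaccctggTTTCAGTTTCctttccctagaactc
Ifit3, chr19:34583358-34583431, plus strand: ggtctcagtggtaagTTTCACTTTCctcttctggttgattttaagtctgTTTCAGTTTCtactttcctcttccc
Ifit1, chr19:34640770-34640828, plus strand: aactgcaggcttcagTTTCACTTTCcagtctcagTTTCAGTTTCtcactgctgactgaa

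The microRNA that the KO mice lack (GRCm38.p6) is shown with its seed (bases 2 to 8) in capitals. Beside it is the seed match in a member's 3′ untranslated region (GENCODE M21, GRCm38), because a microRNA pairs with its targets through the seed. A match is a description of the letters and no measure of repression. A match to the seed, AGTTCTC or GTTCTCA, was found in the annotated 3′ untranslated region of 1 of the 9 members, Stat2, at base 474 of 1476. Of 21173 genes with such a region, 19.223% held a match.
miR-146a-5p, chr11:43374435-43374456, minus strand: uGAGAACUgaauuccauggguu
Stat2 site, match in capitals: ggcccttcAGTTCTCtcttccag

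The libraries held between 2933026 and 9469214 recovered reads. Values are normalised read counts, that is CPM on an effective library size, as the authors deposited them. The precursor gene Mir146 had 1 read in the 52 libraries, in a WT hippocampus at P30, and a poly-A library does not capture the mature microRNA, so it does not check the genotype labels. Some libraries stood apart from their group. In WT P30 amygdala replicate 3 the sums over lists of markers were the highest of its group for microglia (460.27), endothelium (645.62), astrocytes (10428.1) and myelin (7030.29). In WT P30 hippocampus replicate 3 the 10 choroid plexus markers summed to 6020.02 and the 10 myelin markers to 19703.1. In WT P30 amygdala replicate 1 the choroid plexus markers summed to 1379.12. The frontal cortex markers summed higher in every frontal cortex library than in any amygdala or hippocampus library, and the hippocampus markers higher in every hippocampus library than in any library of the other 2 regions. The amygdala markers did not separate the regions: they summed to 54.92 to 170.77 in P30 amygdalae and to 56.54 to 148.12 in P30 hippocampi, and the lowest amygdala library, at 54.92, was WT P30 amygdala replicate 3. The labels do not say whether regions of an age came from the same animals.

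No member differed between KO and WT by the test in any of the 7 settings. The test was limma-trend on log2(value + 1) across all tested genes of an age, with Benjamini-Hochberg adjustment and a threshold of 0.05, and every fold change below is on that log2(value + 1) scale, which understates the change of low genes. Few genes of any kind were called between KO and WT: 0.049% of tested genes in the E14 cortex, 0.0263% in the P30 amygdala, 0.0158% in the P30 frontal cortex, 0.0316% in the P30 hippocampus, 0.0208% in the P60 amygdala, 0.0312% in the P60 frontal cortex and 0.0208% in the P60 hippocampus. At an unadjusted p under 0.05 there was 1 member in the E14 cortex (Irf9), 1 in the P30 amygdala (Oasl2), 1 in the P60 amygdala (Ifit1) and 0 in the others, against 2.89%, 9.82% and 4.07% of all tested genes in those 3 settings. The p-values measure the spread between these libraries. In bulk tissue, fewer cells of a type and less RNA per cell cannot be told apart.

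**Figure D1:**
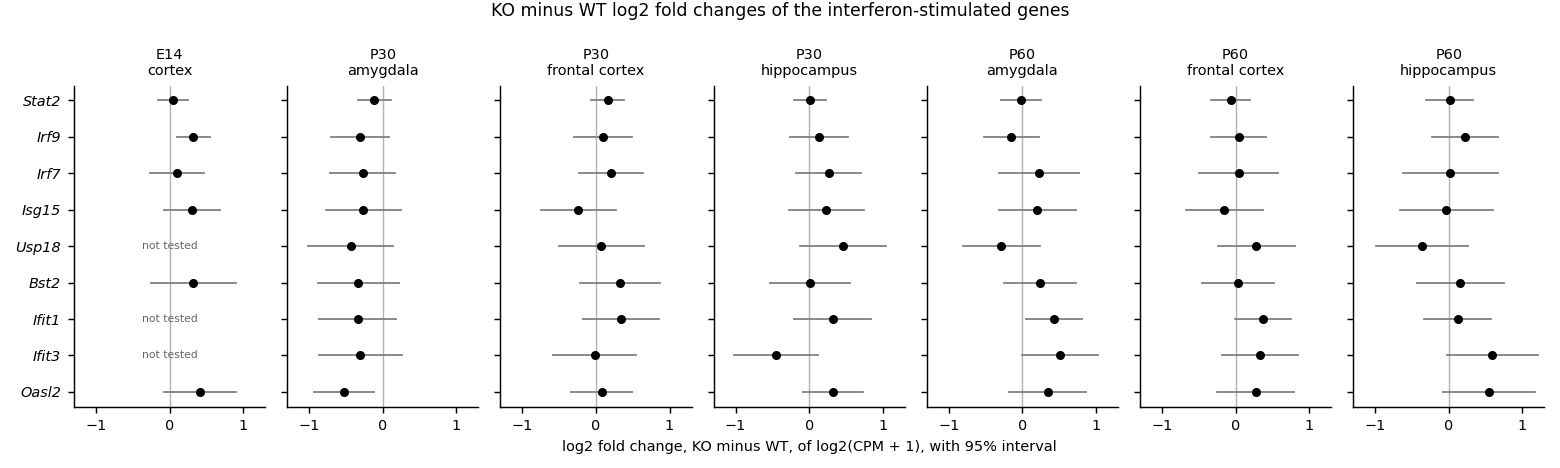
Log2 fold changes (KO minus WT, of log2(CPM + 1)) of the 9 genes in the 7 settings, 1 panel each; points are estimates and lines 95% confidence intervals from limma-trend. The points lie above 0 for all 6 tested genes in the E14 cortex and below 0 for all 9 in the P30 amygdala, and no gene passed the adjusted test.

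In the E14 cortex all 6 tested members had a log2 fold change above 0, with a median of 0.32, against 0.01 over all 18350 tested genes, of which 52.5% lay above 0. Ifit1, Ifit3 and Usp18 had too few reads at E14 to be tested. Irf9 (ENSMUSG00000002325; chromosome 14, 55603571 to 55610030, GRCm38), the DNA-binding part of ISGF3, was at 14.57, 12.53, 15.58, 14.16 and 13.75 in KO cortices, against 12.1, 12.19, 9.89 and 10.22 in WT cortices. Every KO library lay above every WT library, a separation that 1.16% of all tested genes showed in either direction. The log2 fold change of Irf9 was 0.32 (SE 0.103, 95% interval 0.10 to 0.55, limma unadjusted p = 0.0088, adjusted p = 1.00). Irf9 shares 123 exon bases with Rnf31 on the same strand, so some reads may belong to either.

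Stat2 (ENSMUSG00000040033; chromosome 10, 128270559 to 128292849), the partner of Irf9 in ISGF3 and the member with the seed match, was at 24.99, 25.18, 23.76, 27.46 and 26.93 in KO cortices, against 28.8, 21.75, 23.97 and 25.03 in WT cortices. The highest library was a WT one and the groups overlapped, with a log2 fold change of 0.05 (SE 0.0909, 95% interval -0.15 to 0.25). Across the 7 settings its log2 fold change ran from -0.12 in the P30 amygdala to 0.16 in the P30 frontal cortex, and none passed the test. In the P30 frontal cortex Stat2 was at 26.5, 24.51, 27.69 and 25.31 in KO libraries, against 23.36, 22.87, 24.94 and 21.59 in WT libraries. There the lowest KO library lay below the highest WT library, so the groups overlapped (adjusted p = 1.00).

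Irf7 (ENSMUSG00000025498; chromosome 7, 141262706 to 141266481), the factor that amplifies type I interferon production, was at 2.13, 2.53, 2.13, 4.19 and 2.41 in E14 KO cortices, against 2.53, 2.31, 1.93 and 2.71 in WT cortices. KO replicate 4 was the highest of all 9, and the other KO libraries lay within the WT range. The log2 fold change of Irf7 was 0.10 (SE 0.169), and it was -0.03 without KO replicate 4. Irf7 shares 45 exon bases with Phrf1 on the opposite strand.

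Among the effectors, Oasl2 (ENSMUSG00000029561; chromosome 5, 114896936 to 114912234), a member of the oligoadenylate synthetase-like family, was at 4.02, 3.22, 2.02, 5.79 and 2.64 in E14 KO cortices, against 1.96, 1.87, 3.22 and 2.19 in WT cortices. Its mean was 1.53-fold that of WT, and the groups overlapped (log2 fold change 0.42, SE 0.224, limma adjusted p = 1.00). Isg15 (ENSMUSG00000035692; chromosome 4, 156199424 to 156200818), a ubiquitin-like modifier, was at 2.64, 2.76, 3.03, 4.31 and 4.24 in KO cortices, against 3.57, 2.09, 2.15 and 2.4 in WT cortices. KO replicates 4 and 5 lay above every WT library, and WT replicate 1 lay above the other 3 KO libraries. Bst2 (ENSMUSG00000046718; chromosome 8, 71534255 to 71537456), tetherin, which holds budding virus at the cell surface, had a log2 fold change of 0.32 (SE 0.264) on 4 to 24 reads per library.

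Of the 3 untested members, Ifit1 and Ifit3 were near the limit of detection in the embryonic cortex. Ifit1 (ENSMUSG00000034459; chromosome 19, 34640871 to 34650009), which binds viral RNA lacking host cap methylation, had 8 reads in KO replicate 4 and 11 in KO replicate 5, against 0 to 2 in each of the other 7 libraries. Its values were 0.13, 0.11, 0.11, 0.98 and 1.26 in KO cortices, against 0.12, 0.22, 0.11 and 0 in WT cortices, where the WT library at 0 allows up to 0.317 CPM of recovered reads (3 counts, counting error only). Ifit3 (ENSMUSG00000074896; chromosome 19, 34583531 to 34588731), a partner of Ifit1 in the same family, had 0 to 3 reads in each library. Usp18 (ENSMUSG00000030107; chromosome 6, 121245906 to 121270917), which removes Isg15 from proteins and blocks the type I receptor, had 4 to 24 reads in each library and was at 1.88, 1.15, 0.45, 2.95 and 0.92 in KO cortices, against 0.92, 0.77, 0.64 and 1.04 in WT cortices.

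KO replicate 4 was the highest of its group for 5 of the 9 members and the lowest for none. Without it the members' median at E14 was 0.22, with 5 of 6 above 0, and Irf9 had the highest log2 fold change, 0.32. The 15 microglial markers summed to 38.55, 39.3, 46.86, 54.16 and 55.24 in KO cortices, against 40.56, 38.79, 33.62 and 44.94 in WT cortices, with KO replicates 4 and 5 the highest. Of the 9 microglial markers tested, 8 had a log2 fold change above 0, with a median of 0.20, and the median was the same without KO replicate 4. The 8 embryonic cortex markers summed to 1760.03 to 2109.69 in KO cortices, against 1457.57 to 1671.44 in WT cortices, with no overlap. The part of either in the members' values was not tested.

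In the P30 amygdala all 9 members had a log2 fold change below 0, with a median of -0.31, against 0.00 over all 18976 tested genes, of which 50.1% lay above 0. Oasl2 was at 5.66, 8.26, 9.39 and 7.93 in KO amygdalae, against 10.84, 7.4, 19.45 and 11.24 in WT amygdalae. WT replicate 3 was far above the rest, and WT replicate 2 lay below 3 of the 4 KO libraries. The log2 fold change of Oasl2 was -0.53 (SE 0.199, 95% interval -0.94 to -0.12, limma unadjusted p = 0.0134, adjusted p = 0.375).

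Ifit1 was at 3.59, 6.01, 4.01 and 5.68 in KO amygdalae, against 5.35, 4.78, 11.02 and 5.3 in WT amygdalae. Ifit3 was at 1.66, 2.25, 2.88 and 3.29 in KO amygdalae, against 1.69, 2.31, 9.47 and 2.57 in WT amygdalae. Usp18 was at 0.55, 1.88, 0.88 and 1.64 in KO amygdalae, against 1.69, 1.85, 3.96 and 0.96 in WT amygdalae. In each of these 3 genes WT replicate 3 was the highest library and the other WT libraries lay among the KO ones. Irf9 was at 8.42, 11.14, 10.89 and 8.67 in KO amygdalae, against 13.51, 10.33, 15.84 and 10.28 in WT amygdalae, with 2 WT libraries above every KO library. For the other 4 genes the log2 fold changes were -0.33 for Bst2, -0.27 for Irf7, -0.26 for Isg15 and -0.12 for Stat2, with limma adjusted p from 0.723 to 0.778.

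WT replicate 3 was the highest of its group for 8 of the 9 members, and KO replicate 1 the lowest of its group for 8. Without WT replicate 3 the median of the 9 members was -0.15, with 8 below 0, and Ifit3 had a log2 fold change of 0.13. Without KO replicate 1 the median was -0.24, with 9 below 0. Markers of glia and vessels lay below 0 as well, while 5 of 8 neuron markers lay above 0 (median 0.10). Without WT replicate 3, 4 of 8 neuron markers did (median 0.12). All 15 microglial markers had a log2 fold change below 0 (median -0.33), and their sum was 267.47 to 341.92 in KO amygdalae, against 342.88 to 460.27 in WT amygdalae, with no overlap. All 12 endothelial markers were below 0 (median -0.29), with sums of 333.17 to 404.4 in KO amygdalae, against 382.19 to 645.62 in WT amygdalae. Without WT replicate 3 these medians were -0.24 for microglia, with 14 of 15 below 0, and -0.10 for endothelium. The 10 astrocyte markers (median -0.21) and the 10 myelin markers (median -0.54) also lay below 0, with medians of -0.15 and -0.13 without that library. The 10 choroid plexus markers were below 0 in either case. No gene of these lists passed the test, and the part of these cells in the members' values was not tested. Of the lymphocyte markers, Cd3e, Cd3d and Cd3g had 17, 4 and 1 reads in all 24 P30 libraries.

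**Figure D2:**
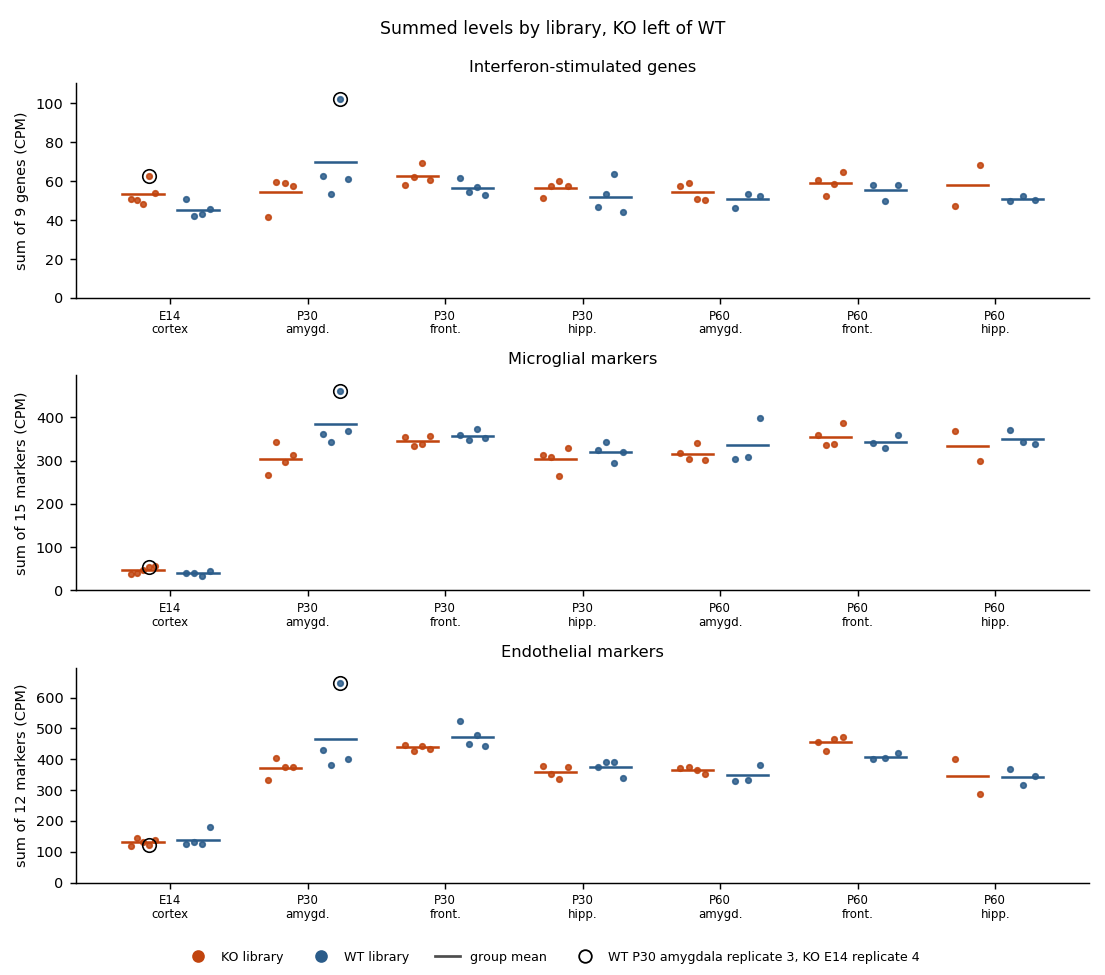
Summed normalised read counts (CPM) per library of the 9 interferon-stimulated genes, 15 microglial markers and 12 endothelial markers, KO left of WT in each setting; bars are group means and rings mark WT P30 amygdala replicate 3 and KO E14 replicate 4. WT P30 amygdala replicate 3 is the highest library in all 3 panels, with 102.25 for the 9 genes, 460.27 for microglia and 645.62 for endothelium.

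In the P30 frontal cortex and hippocampus the members lay mostly above 0. In the frontal cortex 7 of 9 had a log2 fold change above 0, with a median of 0.10, against 0.01 over all genes, of which 54.1% lay above 0. The median was 0.16 without WT replicate 1 and 0.07 without KO replicate 4. Ifit1 was at 5.25, 7.1, 6.15 and 4.62 in KO libraries, against 6.5, 4.76, 4.09 and 2.58 in WT libraries, and Bst2 was at 2.32, 2.19, 2.69 and 2.1 in KO libraries, against 2.32, 1.63, 1.02 and 1.77 in WT libraries. These had the highest log2 fold changes there, 0.34 for Ifit1 (SE 0.252) and 0.33 for Bst2 (SE 0.266), with groups that overlapped. Isg15 had a log2 fold change of -0.24, and all 9 had a limma adjusted p of 1.00.

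In the hippocampus 8 of 9 had a log2 fold change above 0, Stat2 and Bst2 by 0.01 each, with a median of 0.24, against 0.00 over all genes, of which 48.9% lay above 0. Usp18 was at 2.26, 2.06, 2.74 and 0.87 in KO libraries, against 0.54, 1.04, 2.56 and 0.74 in WT libraries (log2 fold change 0.46, SE 0.281). Oasl2 was at 7.17, 9.22, 11.31 and 9.28 in KO libraries, against 6.78, 7.99, 8.76 and 5.35 in WT libraries (log2 fold change 0.32, SE 0.199). For Oasl2, 3 of the 4 KO libraries lay above every WT library. For Usp18, 3 of the 4 KO libraries lay above 3 of the 4 WT libraries. KO replicate 3, the highest KO library for 5 members, had the fewest recovered reads of all libraries, 2933026. Ifit3 lay below 0, with 1.46, 1.65, 0.69 and 1.16 in KO libraries, against 1.96, 1.92, 2.14 and 2.08 in WT libraries. Every KO library lay below every WT library, as in 3.15% of all tested genes in either direction, on 2 reads or more per library (log2 fold change -0.45, SE 0.276, limma adjusted p = 0.636). Ifit3 is 97.8% identical over 1700 bases to Ifit3b, so the counting could have split reads between them. Without WT replicate 3, the highest WT library for 6 members, the median of the 9 was 0.34, with 7 above 0. It was 0.14 without KO replicate 3 (7 above 0), 0.11 without KO replicate 4 (7 above 0), 0.12 without WT replicate 2 (7 above 0) and 0.13 without WT replicate 4 (5 above 0). The median of the 10 choroid plexus markers in the hippocampus was -0.73 with WT replicate 3 and 0.41 without it. That of the 10 myelin markers, all below 0 in either case, was -0.79 with it and -0.51 without it. Their part in the members' values was not tested.

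Between regions the KO effect of no member differed by the test of the difference itself, and 0% of all tested genes did in each of the 6 such contrasts. At P30 the KO effect in the amygdala minus that in the frontal cortex was below 0 for all 9 members (median -0.48), and the effect in the amygdala minus that in the hippocampus for 8 of 9 (median -0.50). For the amygdala minus the hippocampus, Oasl2 had a log2 difference of -0.85 (SE 0.282, 95% interval -1.43 to -0.27, limma unadjusted p = 0.00572, adjusted p = 0.682) and Usp18 of -0.90 (SE 0.397, adjusted p = 0.790). The pair of contrasts share the amygdala libraries, WT replicate 3 among them.

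At P60 no member passed the test either, and Ifit1 and Ifit3 had the highest log2 fold changes of the members in the amygdala and the frontal cortex. There were 6 of 9 members above 0 for the amygdala (median 0.23), 7 of 9 for the frontal cortex (median 0.04) and 7 of 9 for the hippocampus (median 0.12). Without WT replicate 3 the amygdala median was 0.13, with 7 above 0. The frontal cortex median was 0.20 without KO replicate 2 (8 above 0), 0.17 without WT replicate 1, 0.13 without KO replicate 1, and 0.10 without KO replicate 3 or WT replicate 2 (6 above 0 in each of the last 4). It was 0.04 without KO replicate 4, with 5 above 0 and 4 below, and 0.06 without WT replicate 3, with 7 above 0. The medians over all genes were 0.00, 0.00 and 0.01, with 50.6%, 50.5% and 52.1% of genes above 0. Ifit1 was at 4.6, 6.64, 3.7 and 5.45 in KO amygdalae, against 3.69, 4.04 and 2.74 in WT amygdalae (log2 fold change 0.43, SE 0.181, 95% interval 0.05 to 0.81, limma unadjusted p = 0.0284, adjusted p = 0.999). Of the KO libraries, 3 lay above every WT library, and the fourth between the WT ones. Ifit1 was at 5.78, 5.53, 7.18 and 6.7 in KO frontal cortices, against 5.08, 4.43 and 4.32 in WT frontal cortices (log2 fold change 0.38, SE 0.181, limma unadjusted p = 0.0519, adjusted p = 1.00). Every KO library lay above every WT library, a separation that 5.26% of all tested genes showed in either direction. In the hippocampus, with 2.8 and 4.31 in KO libraries against 2.79, 3.02 and 3.61 in WT libraries, the groups overlapped.

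Ifit3 was at 2.82, 5.17, 3.38 and 3.31 in P60 KO amygdalae, against 1.85, 3.23 and 1.77 in WT amygdalae. It was at 3.21, 4.7, 3.87 and 4.77 in KO frontal cortices, against 3.98, 3.14 and 2.24 in WT frontal cortices. It was at 3.11 and 4.62 in KO hippocampi, against 2.2, 3.58 and 1.2 in WT hippocampi. The groups overlapped in all 3 regions, with log2 fold changes of 0.51 (SE 0.247), 0.33 (SE 0.247) and 0.59 (SE 0.296), none past the test (limma adjusted p = 0.999, 1.00 and 1.00). The labels state no pairing, but an alternative fit took replicate numbers to pair KO and WT libraries. With such pairs as a block in the amygdala, KO replicate 4 has no partner and no weight, and 7 of the 9 members lay above 0 (median 0.18). In that fit the log2 fold changes were 0.40 for Ifit1 (SE 0.186), 0.54 for Ifit3 (SE 0.198) and 0.39 for Oasl2 (SE 0.176). Each had a limma adjusted p of 0.870. Oasl2 likewise lay above 0 in the 3 regions (0.35, 0.27 and 0.55), and its hippocampal value rested on a KO library at 12.62, the other at 4.66, against 3.38, 6.41 and 5.68 in WT libraries. Usp18, the negative regulator, had log2 fold changes of -0.29 (amygdala), 0.28 (frontal cortex) and -0.37 (hippocampus). It was at 1.63, 1.29, 1.13 and 0.5 in KO amygdalae, against 0.99, 1.45 and 2.42 in WT amygdalae, which overlapped. Irf9, which separated the genotypes at E14, did not at P60: it averaged 9.88 ± 0.652 in KO amygdalae (SD, n = 4) and 11.2 ± 2.33 in WT amygdalae (SD, n = 3). Leaving out KO replicate 2 of the P60 hippocampus, the higher of 2 KO libraries for 8 of the 9 members, put the median of the 9 at -0.12, with 2 above 0. Leaving out KO replicate 1 put it at 0.36, with 8 above 0, and the lone KO library was in both cases assumed to vary like the other groups. Without WT replicate 1 it was 0.04 and without WT replicate 2 it was 0.08, with 6 above 0 each.

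**Figure D3:**
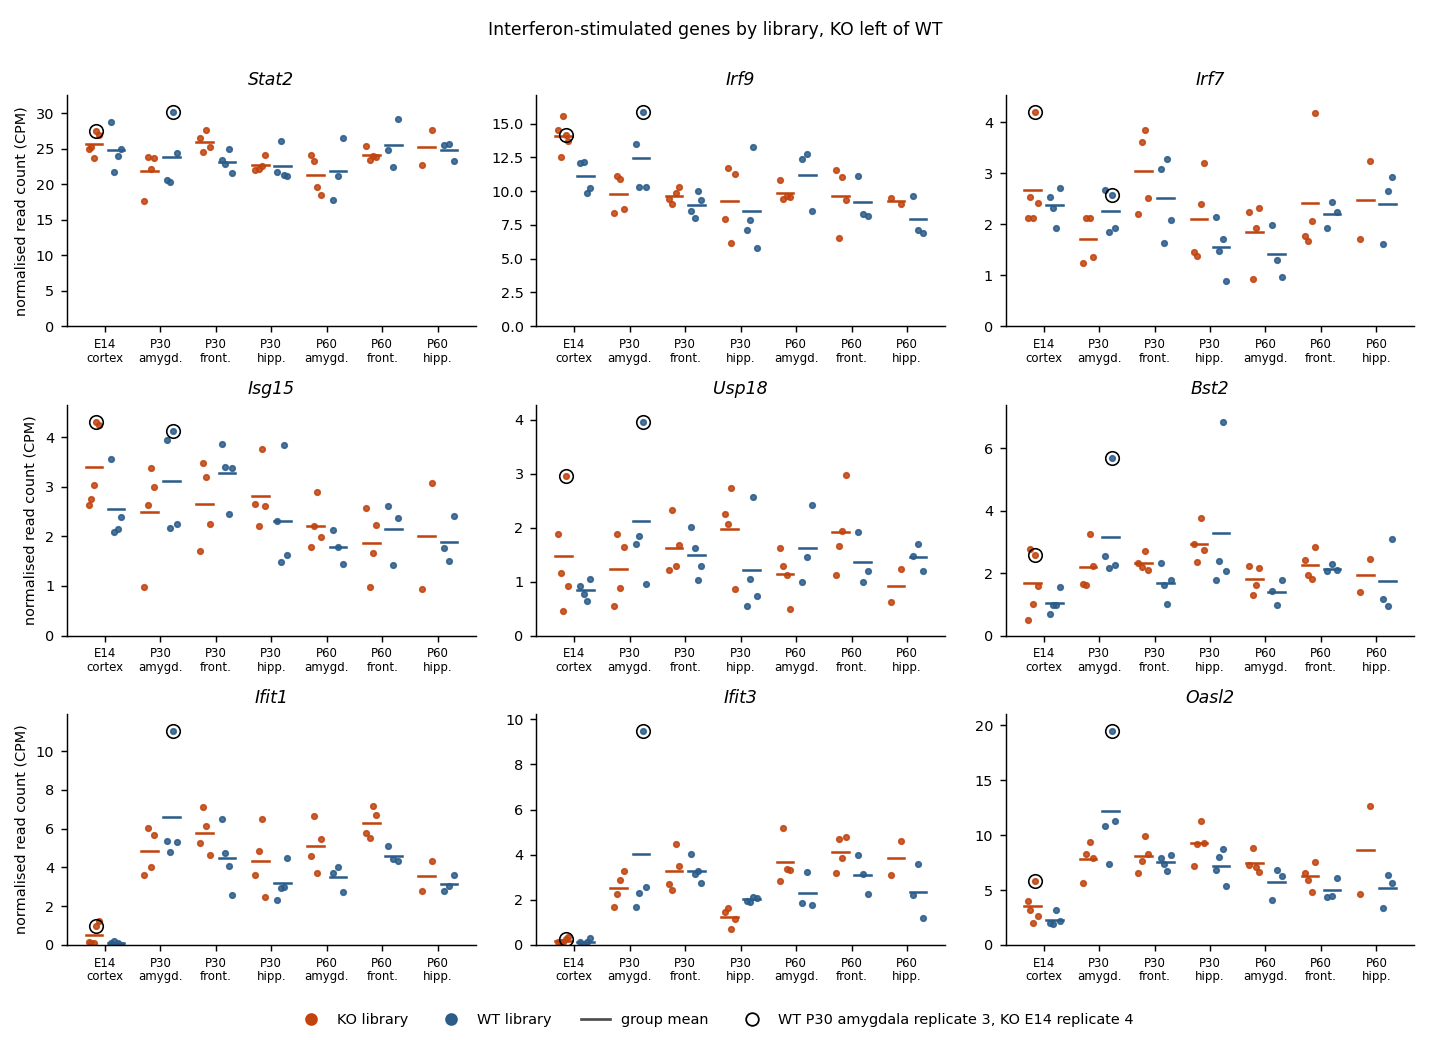
Normalised read counts (CPM) of the 9 genes in each library of the 7 settings, KO left of WT; points are libraries, bars group means, and rings mark WT P30 amygdala replicate 3 and KO E14 replicate 4. WT P30 amygdala replicate 3 lies at 11.02 for Ifit1, 9.47 for Ifit3 and 19.45 for Oasl2, above all other libraries of those genes.

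The rest of the pathway gave no call between KO and WT: of the genes in 6 lists, none passed the test in any of the 7 settings. The lists, none of them tested as a set, were ligands, receptors and kinases, negative regulators, nucleic acid sensors, other interferon-stimulated genes and interferon-gamma-responsive genes. None of the 12 interferon ligands reached the limit for testing. They had 77 reads in all at E14, 61 at P30 and 37 at P60, of which Ifnk, a type I interferon of keratinocytes, had 76, 57 and 29. Of the 33 other interferon-stimulated genes, 15 were tested at E14, where 14 had a log2 fold change above 0 (median 0.15), and 25 at P30 and P60. In the P30 amygdala 2 of 25 lay above 0 (median -0.25), and without WT replicate 3, 10 of 25 (median -0.04). In the P30 hippocampus, where 8 of the 9 members lay above 0, 10 of 25 did (median -0.07). At P60 the count above 0 was 18 of 25 for the amygdala (median 0.11), 20 for the frontal cortex (median 0.09) and 20 for the hippocampus (median 0.17), and in the P30 frontal cortex it was 17 (median 0.05). The interferon-gamma-responsive genes, such as the immunoproteasome subunits and guanylate-binding proteins, had 3 of 4 above 0 at E14 (median 0.17; without KO replicate 4, 2 of 4 and 0.04) and 0 of 8 in the P30 amygdala (median -0.22). Their medians were -0.08 for the P30 frontal cortex and -0.12 for the P30 hippocampus, and at P60 0.11, 0.18 and 0.05 for amygdala, frontal cortex and hippocampus. The negative regulators had medians between -0.08 and 0.04 over the 7 settings, and the nucleic acid sensors between -0.10 and 0.13.

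The receptors and kinases lay close to 0 in the P30 amygdala, with a median of 0.03 over 7 genes, in contrast to the -0.31 of the members. Jak1, the kinase shared by the type I and type II receptors, was at 195 ± 3.27 in KO amygdalae and 162 ± 3.30 in WT amygdalae (SD, n = 4 each), with no overlap (log2 fold change 0.26, SE 0.0648, limma adjusted p = 0.212). Oas2, which makes the oligoadenylate that activates RNase L, was at 1.11 ± 0.236 in KO amygdalae and 2.30 ± 0.935 in WT amygdalae (SD, n = 4 each), also with no overlap (log2 fold change -0.61, SE 0.210, limma adjusted p = 0.335). Tlr9, the endosomal sensor of DNA, averaged 2.38 ± 0.532 in KO amygdalae and 3.76 ± 0.655 in WT amygdalae (SD, n = 4 each; log2 fold change -0.50), with no overlap. The receptors and kinases had medians between -0.10 and 0.07 over the 7 settings. In the P30 hippocampus Ifit2, of the same family as Ifit1 and Ifit3, was at 3.95 ± 0.679 in KO libraries and 5.64 ± 0.501 in WT libraries (SD, n = 4 each; log2 fold change -0.43, SE 0.131, limma adjusted p = 0.291), the same side as Ifit3. In the P60 hippocampus Rsad2, viperin, was at 1.78 ± 0.0990 in KO libraries (SD, n = 2) and 0.707 ± 0.283 in WT libraries (SD, n = 3), a log2 fold change of 0.72 (SE 0.241, limma adjusted p = 1.00). Uba7, the enzyme that activates Isg15, averaged 4.87 ± 1.02 in KO libraries (SD, n = 2) and 2.82 ± 0.940 in WT libraries there (SD, n = 3; log2 fold change 0.64), and Ifi44 had a log2 fold change of 0.52. In the P60 amygdala Psmb10, an immunoproteasome subunit, averaged 11.9 ± 1.52 in KO libraries (SD, n = 4) and 9.10 ± 0.114 in WT libraries (SD, n = 3; log2 fold change 0.34), Ifngr2 had -0.21 and Tbk1 0.13. In the P60 frontal cortex Sp100 had 0.35, Tlr9 0.33 and Gbp7 0.33. None of these passed the test. The share of all tested genes without overlap was 6.65% for the P30 amygdala, 3.15% for the P30 hippocampus, 5.04% for the P60 amygdala, 5.26% for the P60 frontal cortex and 11.7% for the P60 hippocampus. No tested gene of the lists was without overlap in the E14 cortex or the P30 frontal cortex, where the shares were 1.16% and 2.36%. At most 3 genes per comparison were taken, by size of fold change, so their number cannot be set against these shares.

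Regions differed for 3 of the members, in contrasts in which much of the transcriptome differed. The contrasts took the mean over KO and WT. At P30, 37.3% of tested genes were called between amygdala and frontal cortex, 43.3% between hippocampus and frontal cortex and 44.1% between amygdala and hippocampus. At P60 the shares were 31.4%, 32.8% and 29%. Of the 9 members 0, 2 and 2 were called at P30 and 0, 1 and 0 at P60, shares below those backgrounds. Between amygdala and frontal cortex, 1 member at P30 and 2 at P60 had a limma unadjusted p under 0.05. The shares of all tested genes there were 45.4% and 41.2%. Between hippocampus and frontal cortex, 4 members at P30 and 1 at P60 did, against 49.8% and 41.9% of all genes. Between amygdala and hippocampus, 3 members at P30 and 1 at P60 did, against 50.4% and 38.9%.

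Ifit3 was lower in the hippocampus than in either other region at P30. In the hippocampus it ran from 0.69 over a median of 1.78 to 2.14, against 2.45 to 4.49 in the frontal cortex, so that the highest hippocampal library lay below the lowest frontal one (8 libraries each). The log2 fold change was -0.71 (SE 0.195, limma adjusted p = 0.00425), in the KO and the WT means alike, with 1.24 and 2.02 in the hippocampus against 3.28 and 3.29 in the frontal cortex. The amygdala averaged 3.27 ± 2.57 and the hippocampus 1.63 ± 0.506 (SD, n = 8 each; log2 fold change 0.57, SE 0.195, limma adjusted p = 0.0189). At P60 Ifit3 averaged 2.94 ± 1.31 in the hippocampus (SD, n = 5) and 3.70 ± 0.907 in the frontal cortex (SD, n = 7), and was not called.

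Ifit1 was lower in the hippocampus than in the amygdala at P30 and than in the frontal cortex at P60. At P30 it ran from 3.59 over a median of 5.33 to 11.02 in the amygdala, against 2.32, 3.29 and 6.51 in the hippocampus (log2 fold change 0.49, SE 0.178, limma adjusted p = 0.0280). At P60 it was at 2.79, 2.8, 3.02, 3.61 and 4.31 in the hippocampus, against 4.32 to 7.18, with a median of 5.53, in the frontal cortex (log2 fold change -0.57, SE 0.141, limma adjusted p = 0.00424). No hippocampal library reached the lowest frontal one. Without KO replicate 1 in all regions the P60 call ended (log2 fold change -0.46, adjusted p = 0.0504). Irf7 averaged 1.83 ± 0.720 in the hippocampus and 2.78 ± 0.790 in the frontal cortex at P30 (SD, n = 8 each), a log2 fold change of -0.43 (SE 0.151, limma adjusted p = 0.0233), with ranges of 0.89 to 3.19 and 1.63 to 3.85 that overlapped.

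The calls between amygdala and hippocampus at P30 changed between alternatives. These changed the processing or left out a replicate number of a genotype in all regions at once. Ifit1 lost its call with median-of-ratios scaling, and Ifit3 with voom on recovered reads. Ifit1 kept its call in 9 of 14 alternatives and Ifit3 in 11 of 14. Without WT replicate 3 in all regions Ifit1 was no longer called. Ifit3 kept its call there, with a log2 fold change of 0.37, and Irf9 was called too (0.37). Without KO replicate 4 in all regions Irf9 was the member called. Ifit3 was called between hippocampus and frontal cortex at P30 in all 14 alternatives, and Irf7 in 10.

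**Figure D4:**
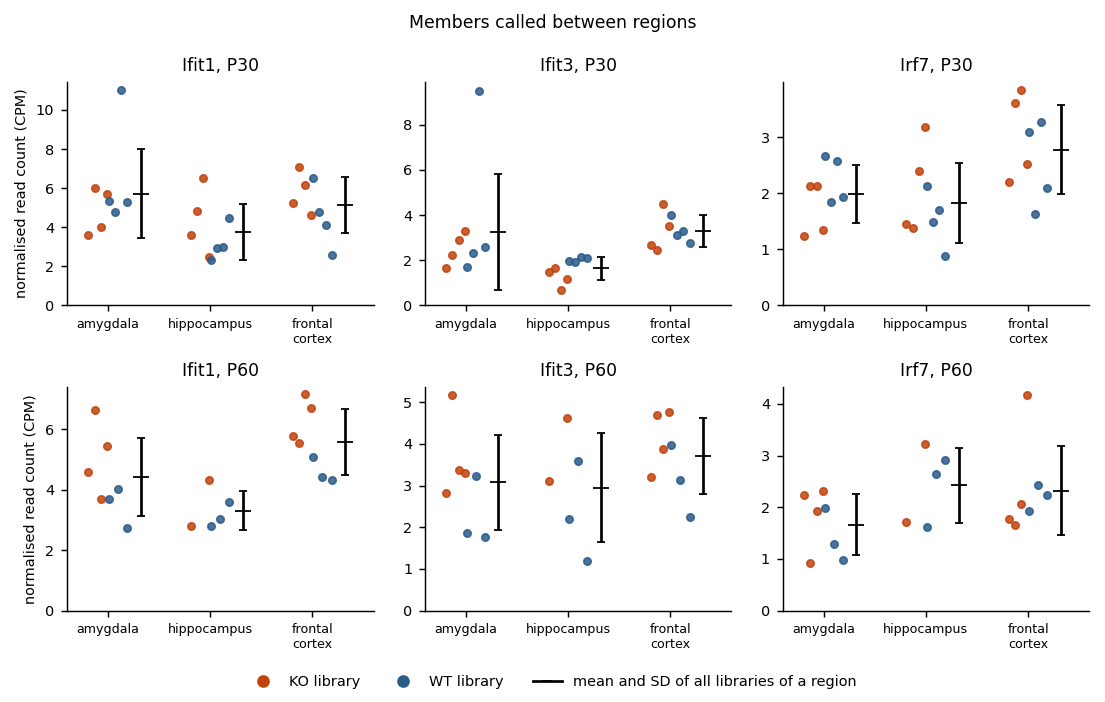
Normalised read counts (CPM) of Ifit1, Ifit3 and Irf7 in the amygdala, hippocampus and frontal cortex at P30 (top) and P60 (bottom); points are KO and WT libraries, and the bar beside them is the mean with SD over all libraries of a region. At P30 no hippocampal library exceeds 2.14 for Ifit3, and at P60 none exceeds 4.31 for Ifit1.

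Other interferon-stimulated genes were called in the same contrasts. Between hippocampus and frontal cortex 1 of 25 was higher and 8 were lower at P30, and 0 were higher and 6 lower at P60. Over all tested genes 3718 were higher and 4499 lower at P30, and 3031 higher and 3277 lower at P60, so the called share of the list was below the 43.3% and 32.8% of all genes. Herc6, the main ligase for Isg15 in the mouse, averaged 5.46 ± 0.953 in the hippocampus and 21.2 ± 3.89 in the frontal cortex at P30 (SD, n = 8 each; log2 fold change -1.77, SE 0.138, limma adjusted p = 7.85e-11). Ifit2 averaged 4.79 ± 1.06 in the hippocampus and 7.67 ± 0.502 in the frontal cortex (log2 fold change -0.60, SE 0.0925), and was lower at P60 too (-0.67, SE 0.157). Samd9l and Ifit3b were also called lower at both ages. Socs3, an inhibitor of Janus kinases, averaged 0.55 ± 0.262 in the hippocampus and 2.07 ± 0.589 in the frontal cortex at P30, a log2 fold change of -0.98 (SE 0.151), and -1.05 at P60 (SE 0.186). The receptor subunits were not uniform: Ifnar1 was lower (-0.28 at P30, -0.25 at P60) and Ifngr2 higher (0.61 and 0.59) in the hippocampus than in the frontal cortex. Between amygdala and frontal cortex Herc6 was lower at both ages (-1.41 and -1.39).

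Cell type markers differed between these regions as well. Between hippocampus and frontal cortex, 9 of 15 microglial and 9 of 12 endothelial markers were called lower at P30, and 1 of 15 and 8 of 12 at P60, where 43.3% (P30) and 32.8% (P60) of all tested genes were called in either direction. The endothelial sum was 337.35 to 392.33 in the hippocampus, against 427.44 to 524.07 in the frontal cortex at P30. At P60 it was 288.07 to 400.44 in the hippocampus, against 400.73 to 472.65 in the frontal cortex. The microglial sum was 263.65 to 341.99 in the hippocampus, against 334.43 to 372.72 in the frontal cortex at P30. Their part in the levels of Ifit1, Ifit3 and Irf7 was not tested.

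Levels at the 3 ages are given side by side, since each table was normalised on its own and no test was made across them. Ifit1 ran from 0 to 1.26 at E14, 2.32 to 11.02 at P30 and 2.74 to 7.18 in P60 libraries, and Ifit3 from 0 to 0.34, 0.69 to 9.47 and 1.2 to 5.17, so that no E14 library reached the lowest postnatal one. Oasl2 had medians of 2.64 at E14, 8.11 at P30 and 6.28 at P60, with ranges of 1.87 to 5.79, 5.35 to 19.45 and 3.38 to 12.62. The other members had similar levels at the 3 ages, with medians of 25.03, 23.1 and 23.83 for Stat2, 12.53, 9.64 and 9.47 for Irf9, 2.41, 2.13 and 1.99 for Irf7, and 2.76, 2.65 and 1.98 for Isg15. Bst2 (1.01, 2.29 and 1.94) and Usp18 (0.92, 1.64 and 1.29) lay somewhat lower at E14, with ranges that overlapped. In CPM of recovered reads the medians were 0.116, 4.80 and 4.38 for Ifit1 and 0.116, 2.39 and 3.26 for Ifit3. The microglial markers were low at E14 too, with sums of 33.62 to 55.24 at E14, against 263.65 to 460.27 for P30 libraries and 298.67 to 397.27 for P60 libraries, and their part was not tested.

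**Figure D5:**
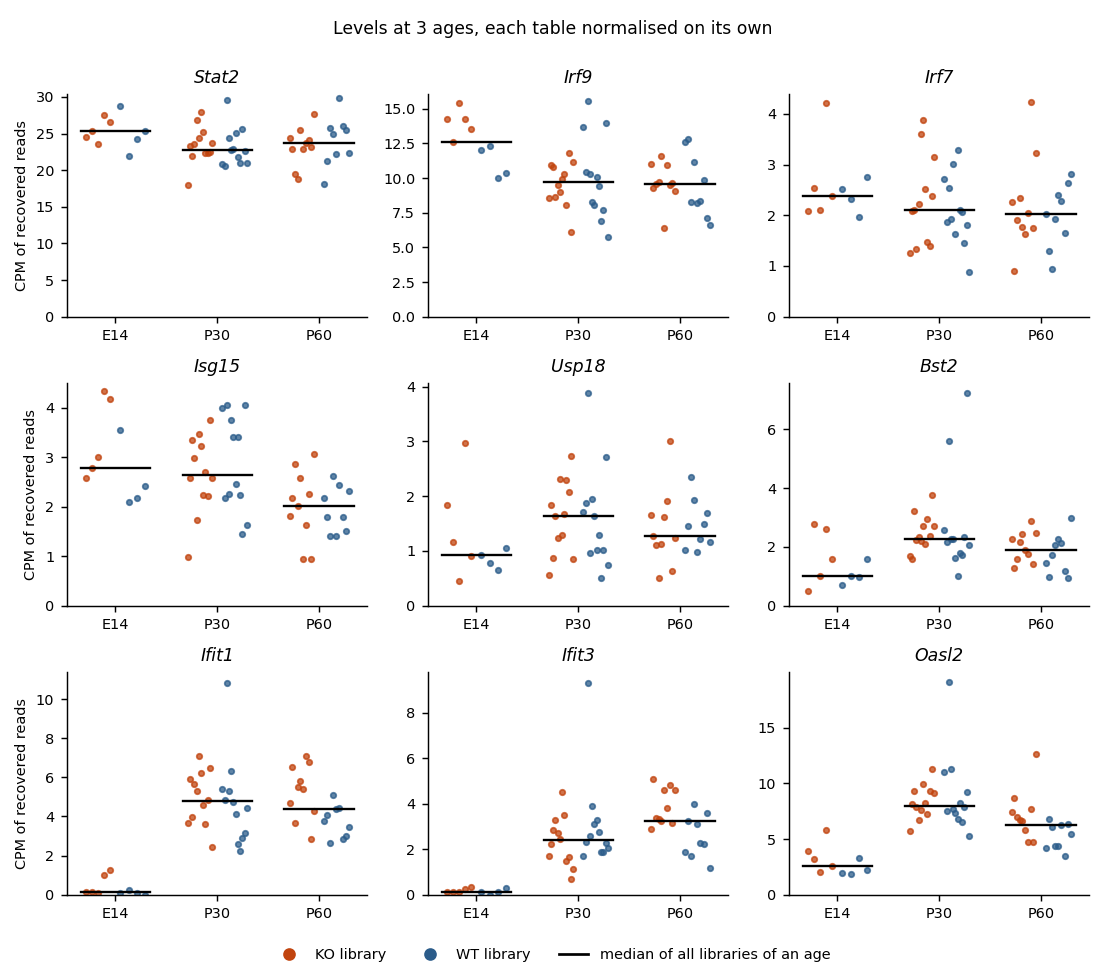
CPM of recovered reads (reads scaled by recovered depth alone) of the 9 genes in each library at E14, P30 and P60, KO left of WT; points are libraries of all regions and bars are medians over an age. Ifit1 and Ifit3 have medians of 0.116 at E14, and Stat2 has medians between 22.8 and 25.3 at all 3 ages.

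Per kilobase of exon, Stat2 and Isg15 had the highest mean levels at every age. Ifit1 and Ifit3 were lowest at E14, and Irf7 and Usp18 lowest at P30 and P60. The length was that of all annotated exons merged over transcripts, so the order depends in part on annotation. It was 6374 bases for Oasl2, whose longest transcript has 3123, and 756 for Isg15 by either measure. At E14 the means were 4.27 ± 0.360 CPM per kilobase for Stat2 and 4.00 ± 1.11 for Isg15, which lay within their spread, then 2.37 ± 0.358 for Irf9, beyond the spread of Isg15 (SD, n = 9). Bst2, Irf7, Oasl2, Usp18, Ifit1 and Ifit3 followed, each within the spread of its neighbour, with Ifit3 at 0.0942 ± 0.0636. At P30 the order was Stat2, Isg15, Bst2, Ifit1, Irf9, Ifit3, Oasl2, Irf7 and Usp18 (SD, n = 24), and neighbours lay within their spread except Oasl2 (1.36 ± 0.436) and Irf7 (0.583 ± 0.207). At P60 Stat2 (3.99 ± 0.494) lay beyond the spread of Isg15 (2.63 ± 0.791), and the rest ran down to Usp18 (0.517 ± 0.212) with each within the spread of its neighbour (SD, n = 19). Isg15 is 95.2% identical over 482 bases to AC151275.1, so its level may hold reads of both.

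Genes whose level moved most like the members were ranked by Pearson's r with the members' mean z score, both centred on group means. At P30, over 24 libraries, Rnf213 (0.880), Helz2 (0.870), Myh9 (0.869), Myo1e (0.868) and Arhgap23 (0.864) led 18618 genes. Without WT P30 amygdala replicate 3, r was 0.759 for Rnf213, 0.821 for Helz2, 0.764 for Myh9, 0.732 for Myo1e and 0.775 for Arhgap23, and Rnf213 stood at rank 23. At E14, over 9 libraries and the 6 tested members, Gm37880 (0.962), Slitrk6 (0.960), Lztfl1 (0.960), 3110080E11Rik (0.954) and Csgalnact1 (0.954) led 18303 genes. With 9 libraries a high r among so many genes is easier to reach by chance than with 24, so r cannot be compared between ages. At P60, over 19 libraries, Gm45250 (0.843), Gm20754 (0.843), Dsg2 (0.842), Vps45 (0.826) and Ppp1r14c (0.820) led 18609 genes. No gene led at more than 1 age, and the libraries of an age share a table and its scaling.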

How the data were processed

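Poly-A RNA was made into stranded libraries, per the labels' protocols. The authors deposited 1 table per age of normalised values: CPM on an effective library size, whose scaling is not given in the sources used here. limma, DESeq, edgeR and the build mm9 are named in the submitters' processing notes with no role. Every value above 0 was a whole multiple of 1 step per library (100% within 0.1 read), which gave whole reads and depth. Symbols, positions, transcripts and 3′ untranslated regions are from GENCODE M21 (GRCm38, 48058 of 48526 IDs matched). Promoter and microRNA sequences are from RefSeq (GRCm38.p6).

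Values were tested as log2(value + 1) with limma-trend (limma 3.58.1, R 4.3.3; trend and robust variance), all groups of an age in 1 fit, Benjamini-Hochberg over all tested genes. A gene was tested where it held the equivalent of 10 reads (at median depth) in a number of libraries equal to the smallest group, and 15 over all. The script was tested on simulated data. The 9 members, the lists and the other settings were chosen with earlier results of these data known. All members were named; of the lists, each gene called, and otherwise up to 3 genes without overlap per KO and WT comparison, not all of which are printed. The result of 1 further list is not reported here. Similar genes were found with blastn 2.17.0. In an alternative fit, shared replicate numbers were taken to pair KO and WT libraries in every KO and WT comparison. The fold changes printed from that fit are those of the P60 amygdala alone, where the correlations of deviations were 0.210 to 0.321. These correlations did not single out the amygdala. They were 0.0307 to 0.224 in the P60 frontal cortex, and 0.624 and 0.497 in the P60 hippocampus, which had 2 pairs. The count tests planned on recovered reads were not run; voom was used in their place. The growth protocol in the labels describes human cells and was not used, and sample labels were followed where the design text differs in age or region.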

Additional observations from a re-analysis of the deposited data

Results flagged for a closer look

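Each member in each group of 4 to 10 libraries was examined for a library far from the others. The 90 such sets share libraries and are not independent. Chance gives about 1 in 20 for a single set, and 7 sets had such a library. Of these, 3 were in WT P30 amygdala replicate 3: Ifit1 at 11.02 (64 reads) against 4.78 to 5.35 in the other WT libraries, Ifit3 at 9.47 (55 reads) against 1.69 to 2.57, and Bst2 at 5.68 (33 reads) against 2.16 to 2.53. Bst2 was also high in WT P30 hippocampus replicate 3, at 6.84 (32 reads) against 1.79 to 2.37, the library with the highest choroid plexus sum. Stat2 was at 26.06 (176 reads) in WT P30 hippocampus replicate 2, against 21.1 to 21.78. Irf7 was at 4.19 (34 reads) in KO E14 replicate 4, against 2.13 to 2.53, and at 4.17 (28 reads) in KO P60 frontal cortex replicate 4, against 1.66 to 2.07. No cause was tested.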

How the results depend on the processing

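No member was called between KO and WT in any of 110 alternatives run, nor in the KO effect between regions in any of 69. The lowest adjusted p of a member over a KO and WT comparison's alternatives was 0.220 (Oasl2, P30 amygdala without WT replicate 2). Counts of members called between regions moved more. Without each replicate number of a genotype in turn they were 1 to 3 for hippocampus against frontal cortex at P30 and 0 to 1 at P60, 1 to 2 for amygdala against hippocampus at P30 and 0 to 1 at P60, and 0 to 1 for amygdala against frontal cortex at P60. With median-of-ratios scaling and with voom on recovered reads (added after seeing the data) they were 1 for amygdala against hippocampus at P30 and at P60, and 2 for amygdala against frontal cortex at P60 (Ifit1 and Stat2, both lower in the amygdala). The causes were not tested. The replicate block changed no call: 0 members were called in each KO and WT comparison with it, and the lowest adjusted p of a member was 0.569 in the P30 amygdala, 0.748 in the P30 hippocampus, 0.870 in the P60 amygdala, 0.672 in the P60 frontal cortex and 1.00 in the others. edgeR and DESeq2 on recovered reads were planned and not run, and the levels across ages had no alternative. Depth limits Ifit1, Ifit3 and Usp18 at E14, with 26, 13 and 92 reads in 9 libraries, and the P60 hippocampus has 2 KO libraries.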
